A study of Homo sapiens with 4 samples.

Results

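Genes that drive cells through mitosis were higher in MCF10A cells overexpressing heat shock factor 1 (HSF1) than in wild type cells. The set described here holds 50 genes of mitosis and the spindle checkpoint, out of 63856 genes in the count table. Members were taken as a list of symbols and matched by symbol and Ensembl identifier, and all 50 were found. The list uses no threshold on a measured value, but it was drawn up with earlier results of these data known. MCF10A is a non-tumorigenic line of human breast epithelial cells. RNA-seq was performed on 2 libraries of wild type cells (WT) and 2 of cells carrying an HSF1 coding sequence in the lentiviral vector pLVX-Puro (HSF1-pLVX).

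Both variants were grown in DMEM/F12 with horse serum, insulin, hydrocortisone, EGF and cholera toxin, although the study's methods do not list cholera toxin. HSF1-pLVX cells were transduced and kept under puromycin as a stable population, whereas WT cells were unmodified, and no library of cells with the empty vector was analysed here. The insert, the transduction and the puromycin selection therefore cannot be told apart as sources of a difference. The study calls the libraries of a group biological replicates without saying how their cultures were separated, so the p-values measure the spread between these libraries only. HSF1 itself was at 200.4 and 189.2 CPM (counts scaled to a common library size after TMM normalization) in WT and at 982.4 and 998.6 CPM in HSF1-pLVX, a log2 fold change of 2.35 (SE 0.10).

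In dividing cells, cyclin A and cyclin B activate the kinase CDK1, and this activity condenses the chromosomes and assembles the spindle. Kinetochores, protein plates built on the centromeres, then bind spindle microtubules. The spindle checkpoint holds back the anaphase-promoting complex (APC/C) with its activator CDC20 until every kinetochore is attached, after which separase opens cohesin and the cell splits by cytokinesis. Many genes of this programme are known to be transcribed together late in the cell cycle, under the MuvB complex with B-MYB and FOXM1, through a promoter element called CHR (cell cycle genes homology region). CCAAT boxes, which bind NF-Y, often lie upstream of the CHR.

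Promoter sequences are shown for 6 members. They are taken from RefSeq (GRCh38.p14) and run from 150 bases before to 30 bases after an annotated start site, 5′ to 3′ on the strand of the gene. Capitals mark matches on either strand to TTTGAA, the CHR letters, or to CCAAT. CCNB2, PLK1 and KIF18A hold both elements in the usual order, and CDK1 (its second annotated start) holds several matches to the CHR letters. CCNB1 holds CCAAT boxes but no TTTGAA, and ECT2 is the tested member that was not called.
CCNB2, chr15:59104996-59105175, plus strand: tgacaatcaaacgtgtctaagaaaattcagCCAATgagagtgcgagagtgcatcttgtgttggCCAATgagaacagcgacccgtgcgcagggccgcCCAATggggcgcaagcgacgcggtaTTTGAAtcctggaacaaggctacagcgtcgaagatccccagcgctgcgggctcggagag
PLK1, chr16:23678739-23678918, plus strand: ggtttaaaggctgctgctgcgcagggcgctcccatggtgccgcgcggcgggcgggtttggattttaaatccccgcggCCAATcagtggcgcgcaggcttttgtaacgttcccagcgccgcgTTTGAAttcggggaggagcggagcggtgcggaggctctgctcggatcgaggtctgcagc
KIF18A, chr11:28108127-28108306, minus strand: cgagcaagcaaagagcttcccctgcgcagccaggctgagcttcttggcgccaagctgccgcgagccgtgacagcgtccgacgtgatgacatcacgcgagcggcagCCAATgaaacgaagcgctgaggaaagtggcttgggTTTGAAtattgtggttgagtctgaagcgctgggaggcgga
CDK1, chr10:60778328-60778507, plus strand: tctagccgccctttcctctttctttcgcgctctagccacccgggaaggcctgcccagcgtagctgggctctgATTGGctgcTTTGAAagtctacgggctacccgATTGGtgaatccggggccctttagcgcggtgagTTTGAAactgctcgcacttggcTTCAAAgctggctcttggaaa
CCNB1, chr5:69167000-69167179, plus strand: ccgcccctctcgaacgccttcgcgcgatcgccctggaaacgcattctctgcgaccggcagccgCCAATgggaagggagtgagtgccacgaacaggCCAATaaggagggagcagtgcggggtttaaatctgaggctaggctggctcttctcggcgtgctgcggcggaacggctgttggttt
ECT2, chr3:172750576-172750755, plus strand: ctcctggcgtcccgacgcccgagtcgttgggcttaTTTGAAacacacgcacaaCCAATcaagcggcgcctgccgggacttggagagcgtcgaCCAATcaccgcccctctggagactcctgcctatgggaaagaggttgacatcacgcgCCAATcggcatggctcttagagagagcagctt

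Of the 50 members, 49 had enough counts to be tested, and 48 of these rose in HSF1-pLVX cells (edgeR quasi-likelihood test, adjusted p below 0.05 after Benjamini-Hochberg adjustment over all 15830 genes tested). None fell, since the lowest fitted log2 fold change of a member was 0.02, that of ECT2, which was not called. Among all genes tested, 32.7% were called higher and 33.2% lower. At least 2-fold increases were found for 45 members, against 14.9% of all genes, and at least 2-fold decreases for 14% of all genes and for no member. The median log2 fold change of the tested members was 2.01, while that of all genes tested was 0.02. For the 48 members that passed the count filter in each group on its own, the median was 1.99. In bulk RNA, a larger share of cells in mitosis and more RNA per cell cannot be told apart. By crystal violet staining, the study reported no effect of HSF1 overexpression on the proliferation of MCF10A cells. It also reported larger spheroids of these cells in Matrigel, and DNA replication among the pathways enriched in the genes it called up-regulated by RNA-seq.

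Summed over all members, the level was 838.4 and 721.0 CPM in WT and 2700 and 2249 CPM in HSF1-pLVX, so the group means of 779.7 ± 83.0 and 2475 ± 319 CPM (SD, n = 2 each) differed 3.17-fold. As a share of all counts, the members took 0.0807% and 0.0717% of the WT libraries and 0.280% and 0.225% of the HSF1-pLVX libraries. Both HSF1-pLVX libraries lay above both WT libraries for 49 members, all but ECT2. These include SPC25, which was not tested, and KIF15, which had 0 counts in both WT libraries. Over all genes tested, SPC25 not among them, the share was 42.1%. With 2 libraries against 2, an exact permutation test of any single gene cannot give a p below 0.33 (two-sided), so the calls rest on the spread estimated across all genes.

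**Figure D1:**
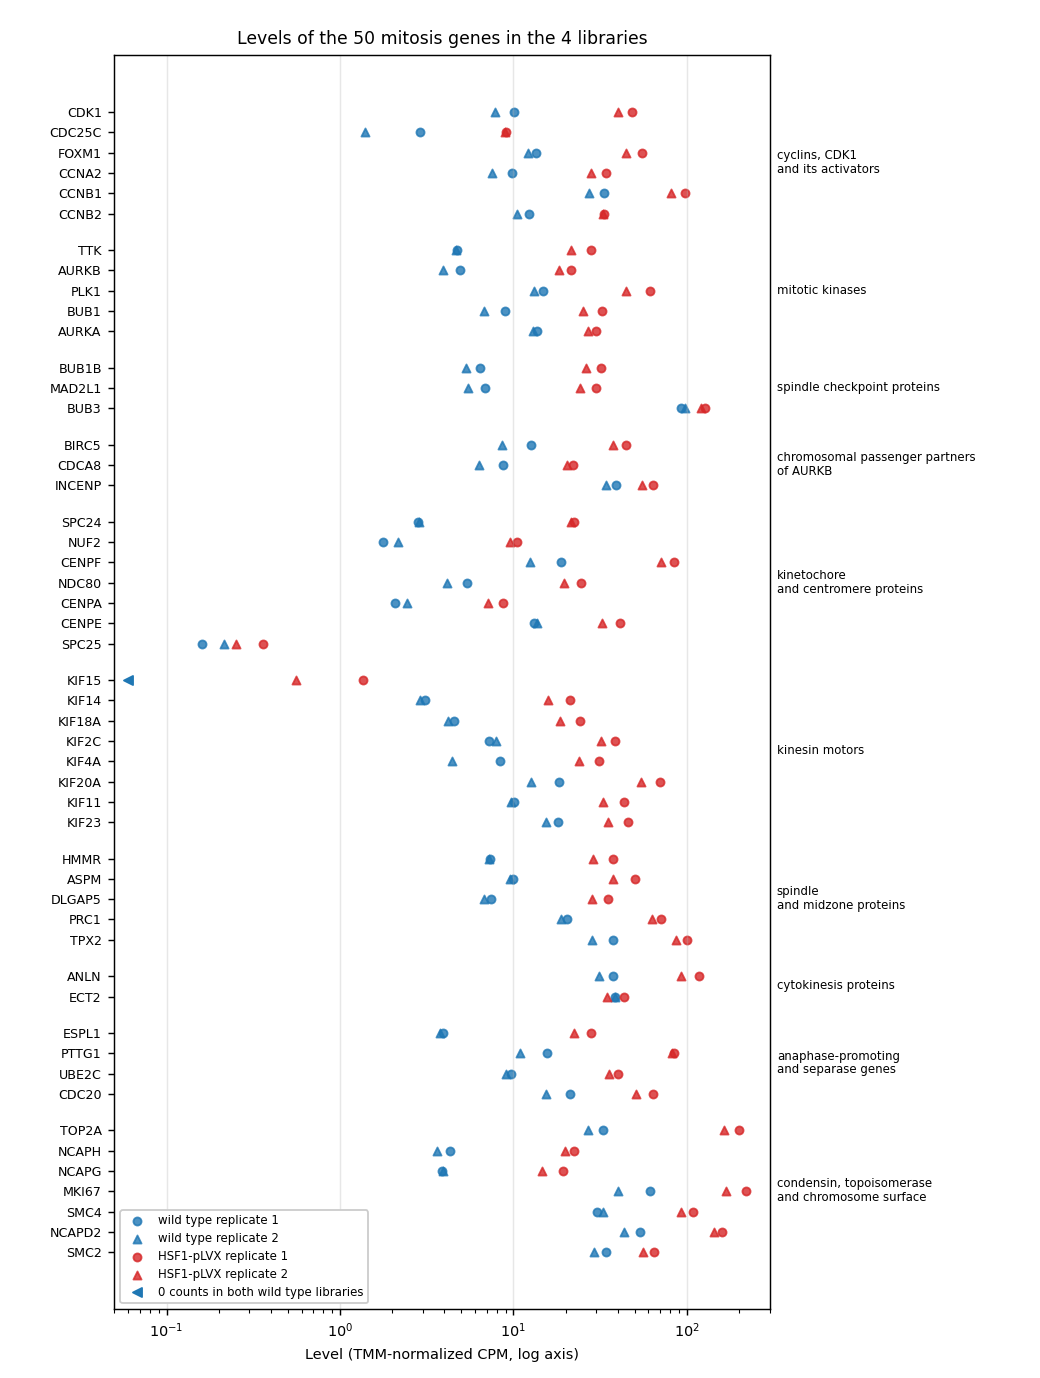
Level of each of the 50 members in each of the 4 libraries, in TMM-normalized CPM on a log axis, grouped by role; blue marks are WT, red marks HSF1-pLVX, circles replicate 1 and triangles replicate 2, and the left-pointing mark stands for the 0 counts of KIF15 in both WT libraries. Red marks lie to the right of blue marks for every member except ECT2, where they lie on both sides.

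All 6 genes of the cyclin and CDK1 group rose, with a median log2 fold change of 1.90. CDK1 (chr10:60778331-60794852 in hg38), the kinase that starts mitosis, was at 10.015 and 7.80 CPM in WT and at 48.4 and 40.2 CPM in HSF1-pLVX. Its log2 fold change of 2.31 (SE 0.13, adjusted p = 2.02e-09) was the highest of the group. The cyclin B1 gene CCNB1 (chr5:69167010-69178245), whose product activates CDK1, was at 33.3 and 27.2 CPM in WT and at 97.2 and 80.5 CPM in HSF1-pLVX, a log2 fold change of 1.56 (SE 0.11, adjusted p = 2.51e-08).

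CCNB2, the gene of cyclin B2, had the smallest change of the group, from 12.3 and 10.5 CPM to 33.2 and 32.7 CPM (log2 fold change 1.53, SE 0.11, adjusted p = 2.16e-08). FOXM1 encodes a transcription factor that drives late cell cycle genes, and its level went from 13.5 and 12.1 CPM to 55.5 and 44.4 CPM (log2 fold change 1.96, SE 0.12, adjusted p = 4.41e-09). For none of these 4 genes did the groups overlap. CCNA2, the gene of cyclin A2, rose by 1.84 on the log2 scale (SE 0.14) and CDC25C, whose phosphatase removes the inhibitory phosphates of CDK1, by 2.06 (SE 0.25). CDC25C had the widest gap between WT libraries among these genes, at 2.88 and 1.40 CPM from 54 and 26 counts.

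Mitotic kinase genes rose in 5 of 5 cases, with a median log2 fold change of 1.92. TTK, the MPS1 kinase that starts spindle checkpoint signalling, was at 4.74 and 4.68 CPM in WT and at 28.2 and 21.4 CPM in HSF1-pLVX (log2 fold change 2.40, SE 0.16, adjusted p = 7.09e-09). The centrosome and spindle kinase gene AURKA changed least, from 13.7 and 13.0 CPM to 29.9 and 26.8 CPM (log2 fold change 1.09, SE 0.11, adjusted p = 6.72e-07). Both genes had all HSF1-pLVX values above all WT values. AURKB, the kinase of the chromosomal passenger complex, rose by 2.17 (SE 0.15), PLK1, which acts in centrosome maturation and mitotic entry, by 1.92 (SE 0.14), and BUB1, a kinetochore kinase of the checkpoint, by 1.87 (SE 0.15), all on the log2 scale.

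The 3 spindle checkpoint genes all passed the test but differed in size. MAD2L1 (chr4:120055608-120067074) encodes MAD2, the protein that binds CDC20 at unattached kinetochores, and it was at 6.87 and 5.44 CPM in WT and at 30.1 and 24.2 CPM in HSF1-pLVX (log2 fold change 2.14, SE 0.15, adjusted p = 1.44e-08). BUB1B, the gene of the checkpoint protein BUBR1, went from 6.39 and 5.33 CPM to 31.8 and 26.3 CPM (log2 fold change 2.31, SE 0.14, adjusted p = 3.51e-09). BUB3 (chr10:123154277-123170467), whose product carries BUB1 and BUBR1 to kinetochores, was at 92.9 and 98.0 CPM in WT and at 126.8 and 120.8 CPM in HSF1-pLVX. This was the smallest change among the members called, a log2 fold change of 0.38 (95% confidence interval 0.19 to 0.56, adjusted p = 1.36e-03), although its groups did not overlap.

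Partners of AURKB in the chromosomal passenger complex rose in 3 of 3 cases. BIRC5, the gene of survivin, went from 12.6 and 8.56 CPM to 44.7 and 37.4 CPM (log2 fold change 1.96, SE 0.15, adjusted p = 3.54e-08). INCENP, the gene of the scaffold that activates AURKB, was at 38.8 and 34.2 CPM in WT and at 63.9 and 55.4 CPM in HSF1-pLVX, a smaller change (log2 fold change 0.71, SE 0.10, adjusted p = 1.94e-05). Values of the variants were apart for both genes. CDCA8, the borealin gene, lay between them at 1.50 (SE 0.14).

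Levels of different genes can be compared per kilobase of counted exon (FPKM, group means). INCENP was the most abundant of the 4 passenger genes at 8.16 FPKM in WT and AURKB the least abundant at 1.97 FPKM, a 4.14-fold span. In HSF1-pLVX, INCENP was at 13.3 FPKM and the lowest gene was CDCA8 at 8.60 FPKM, a 1.55-fold span. The 5 checkpoint genes BUB1, BUB1B, BUB3, MAD2L1 and TTK spanned 11.2-fold in WT, from TTK at 1.03 FPKM to BUB3 at 11.5 FPKM, and 3.16-fold in HSF1-pLVX, from MAD2L1 at 4.72 FPKM to BUB3 at 14.9 FPKM. For CCNB1, CCNB2 and CDK1 the span went from 5.22-fold to 3.09-fold. Levels within these groups were thus closer to each other in HSF1-pLVX; the difference between spans was not tested.

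**Figure D2:**
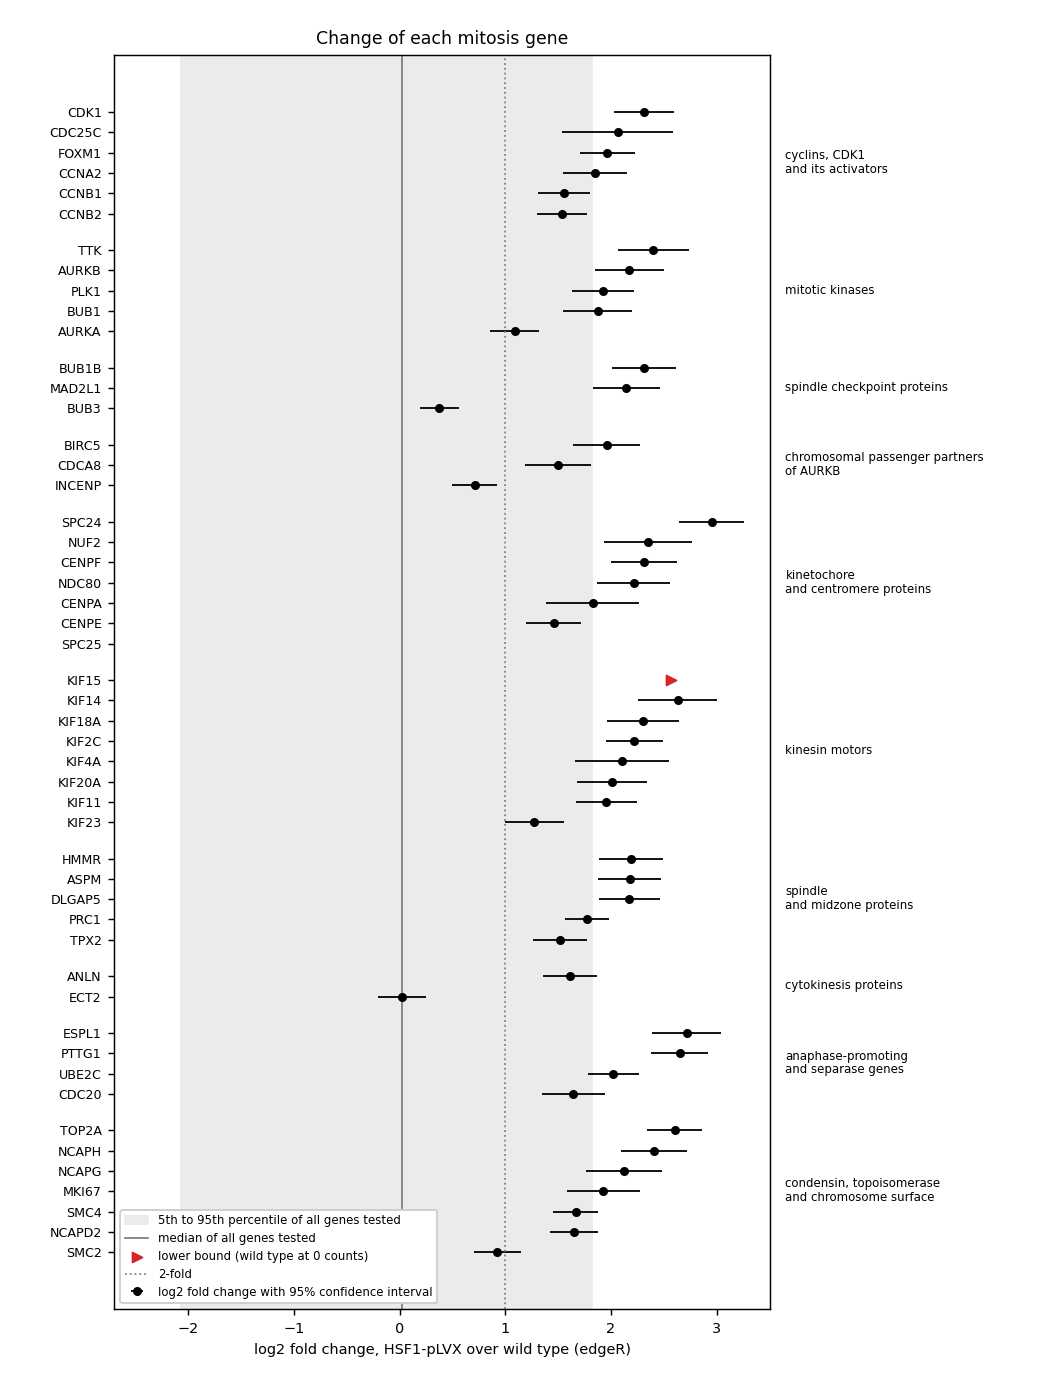
Log2 fold change of each tested member, HSF1-pLVX over WT, with its 95% confidence interval from edgeR, beside the 5th to 95th percentile (grey band) and the median (grey line) of all genes tested; the red mark is the lower bound of KIF15, and SPC25 was not tested. ECT2 lies on the median of all genes, BUB3, INCENP and SMC2 lie between it and the dotted 2-fold line, and most others lie near 2.

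Kinetochore and centromere genes had a median log2 fold change of 2.26, and the 6 that could be tested rose. SPC24 (chr19:11131520-11155808), one subunit of the NDC80 complex that grips microtubules, was at 2.82 and 2.85 CPM in WT and at 22.3 and 21.6 CPM in HSF1-pLVX. With 53 and 53 counts against 561 and 429, its log2 fold change of 2.95 (SE 0.14, adjusted p = 3.78e-10) was the highest among members with counts in every library. CENPE, the gene of a kinetochore kinesin that moves chromosomes to the spindle equator, changed least in this group, from 13.2 and 13.7 CPM to 41.0 and 32.5 CPM (log2 fold change 1.46, SE 0.12, adjusted p = 1.04e-07). Neither gene had overlapping groups.

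Of the other NDC80 complex genes, NUF2 rose by 2.35 (SE 0.19) and NDC80 by 2.21 (SE 0.16) on the log2 scale. CENPF, a large kinetochore protein of late cell cycle phases, rose by 2.31 (SE 0.14), and CENPA, the histone H3 variant that marks centromeres, by 1.83 (SE 0.21). SPC25, the fourth gene of the NDC80 complex, held only 3 and 4 counts in WT and 9 and 5 in HSF1-pLVX and was not tested. Without SPC25, NDC80 complex genes spanned 2.28-fold per length in WT, with NDC80 highest and NUF2 lowest, and 2.61-fold in HSF1-pLVX, with SPC24 highest and NUF2 lowest.

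Kinesin motors rose in 8 of 8 cases, but KIF15, described below, had 0 counts in both WT libraries and could only be called higher. KIF23, the motor of the centralspindlin complex at the midzone, changed least, from 18.1 and 15.4 CPM to 45.7 and 35.1 CPM (log2 fold change 1.27, SE 0.13, adjusted p = 8.18e-07). KIF14, which acts in cytokinesis, rose by 2.63 (SE 0.18), KIF18A, which dampens chromosome movements, by 2.30 (SE 0.16), and KIF2C, a microtubule depolymerase at centromeres, by 2.22 (SE 0.13). Chromokinesin KIF4A rose by 2.10 (SE 0.21), KIF20A, a midzone motor, by 2.01 (SE 0.15), and KIF11, which pushes the spindle poles apart, by 1.95 (SE 0.14).

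KIF15 (ENSG00000163808.16, chr3:44761717-44873376), a spindle motor that can act beside KIF11, passed the count filter only through the HSF1-pLVX libraries. It held 0 and 0 counts in WT and 34 and 11 in HSF1-pLVX. Against a floor of 3 counts per WT library, the HSF1-pLVX mean was at least 5.94-fold higher. This bound holds for the mean and not for each library. Without KIF15, 47 of 48 tested members were called higher. Values of KIF15 and SPC25 are uncertain, because the annotation used for counting also holds a copy of each on a contig outside the main chromosomes. The copy of KIF15 has the same widths for all 39 of its exon pieces, and that of SPC25 shares 83.3% of them. These copies held 0 to 5 counts per library, and how reads mapping to both places were counted is not stated.

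Spindle and midzone genes rose in 5 of 5 cases, with a median log2 fold change of 2.17. HMMR, a microtubule-associated protein of the spindle poles, was at 7.30 and 7.27 CPM in WT and at 37.6 and 28.6 CPM in HSF1-pLVX (log2 fold change 2.19, SE 0.14, adjusted p = 6.94e-09). TPX2, which activates AURKA on spindle microtubules, went from 37.3 and 28.4 CPM to 100.8 and 87.1 CPM (log2 fold change 1.52, SE 0.12, adjusted p = 5.03e-08). WT and HSF1-pLVX libraries were apart for both. ASPM, a spindle pole protein, rose by 2.18 (SE 0.14), DLGAP5, which stabilizes kinetochore fibres, by 2.17 (SE 0.13), and PRC1, which bundles microtubules of the midzone, by 1.77 (SE 0.10).

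The pair of cytokinesis genes was split. ANLN, the gene of the cleavage furrow scaffold anillin, went from 37.7 and 30.9 CPM to 117.0 and 92.4 CPM (log2 fold change 1.61, SE 0.12, adjusted p = 3.07e-08). ECT2 (chr3:172750682-172821474), the exchange factor that activates RhoA at the furrow, was at 38.6 and 38.6 CPM in WT and at 43.4 and 34.6 CPM in HSF1-pLVX. Its HSF1-pLVX values lay on either side of the WT values. The log2 fold change was 0.02 (95% confidence interval -0.21 to 0.25, adjusted p = 0.880), an interval that leaves out a 2-fold change in either direction.

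Genes of anaphase onset had the highest median of any role group, 2.33, and all 4 rose. ESPL1, the gene of separase, was at 3.94 and 3.77 CPM in WT and at 28.2 and 22.4 CPM in HSF1-pLVX (log2 fold change 2.72, SE 0.15, adjusted p = 1.67e-09). CDC20, which activates the APC/C and is its checkpoint target, changed least, from 21.3 and 15.4 CPM to 63.7 and 50.8 CPM (log2 fold change 1.64, SE 0.14, adjusted p = 1.17e-07). Groups of both genes were apart. The separase inhibitor gene PTTG1, which encodes securin, rose by 2.65 (SE 0.13), and UBE2C, an ubiquitin-conjugating enzyme of the APC/C, by 2.02 (SE 0.11).

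Condensin, topoisomerase and chromosome surface genes rose in 7 of 7 cases, with a median log2 fold change of 1.93. TOP2A (chr17:40388516-40417950), the topoisomerase that untangles sister chromatids, was at 32.9 and 26.9 CPM in WT and at 199.1 and 163.4 CPM in HSF1-pLVX (log2 fold change 2.60, SE 0.12, adjusted p = 2.55e-10). MKI67 (chr10:128096659-128126385), the gene of the proliferation marker Ki-67 that coats mitotic chromosomes, went from 61.3 and 40.3 CPM to 218.2 and 167.6 CPM (log2 fold change 1.93, SE 0.16, adjusted p = 1.06e-07). SMC2, a core subunit shared by both condensins, changed least, from 34.3 and 29.2 CPM to 64.7 and 55.7 CPM (log2 fold change 0.92, SE 0.10, adjusted p = 2.29e-06). In each of these genes the HSF1-pLVX libraries lay above the WT libraries.

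SMC4, the other core subunit, rose by 1.67 (SE 0.10), and the condensin I subunits NCAPH, NCAPG and NCAPD2 rose by 2.41 (SE 0.15), 2.12 (SE 0.17) and 1.65 (SE 0.11). Per length, the 5 condensin I genes spanned 9.40-fold in WT and 6.78-fold in HSF1-pLVX, with NCAPD2 highest and NCAPG lowest in both. Exons on the opposite strand cover 33.1% of the counted bases of NCAPG and 25.6% of those of SMC4, and no other member shared 20% or more. Whether the counting used strand is not stated, so reads from those genes cannot be told apart from reads of NCAPG and SMC4.

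Within each replicate number the members behaved alike. The median log2 ratio of HSF1-pLVX to WT was 2.04 between the libraries numbered 1 and 1.97 between those numbered 2, over the 48 tested members with counts in every library. Replicates of a group also differed from each other in a common direction. In WT, 39 of these 48 members were higher in replicate 1 (median log2 difference 0.23), and in HSF1-pLVX 48 of 48 were higher in replicate 1 (median 0.29). Over all genes tested the same medians were -0.01 and 0.01, with SDs of 0.41 and 0.37. The gap between replicates was thus shared by the members, but it was small beside the gap between the variants.

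**Figure D3:**
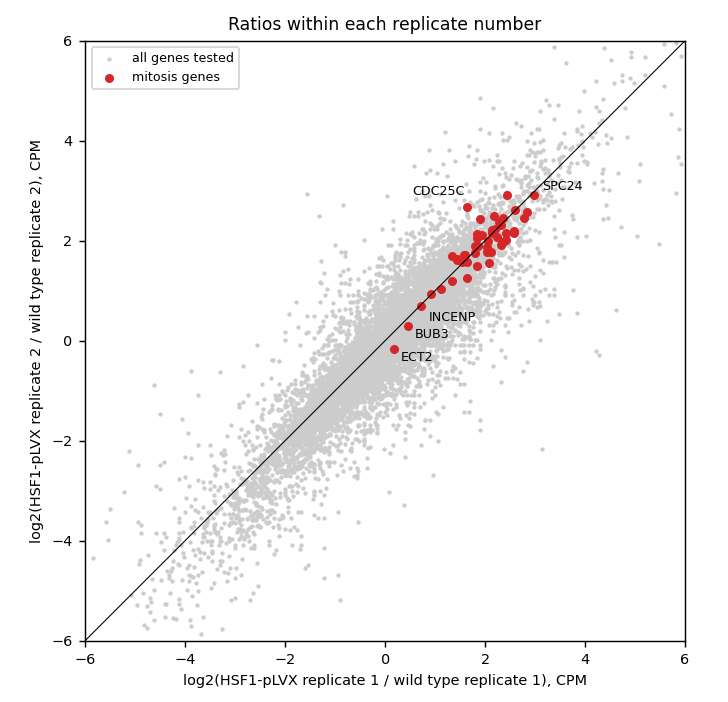
Log2 ratio of CPM, HSF1-pLVX over WT, in the libraries numbered 1 (horizontal axis) and 2 (vertical axis), for all genes tested with counts in every library (grey) and 48 members (red); the line marks equal ratios. The members gather around 2 on both axes, with ECT2, BUB3 and INCENP nearest to 0.

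The study called a gene changed when its ratio was above 2 or below 0.5 in both replicates. Applied to the deposited normalized values, this rule placed 44 of 50 members above 2, against 5% of all 22321 rows of that table, which also hold genes not tested here. The 44 include KIF15, with 0 counts in both WT libraries. KIF15 and SPC25 have 2 rows each among these values, and the row with the larger sum was used. The other 6 members, AURKA, BUB3, INCENP, SMC2, ECT2 and SPC25, met neither limit, and none was below 0.5. AURKA missed narrowly, with log2 differences of 1.04 and 0.99.

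Promoter windows from 250 bases before to 50 bases after a start site were found in RefSeq for 43 members, in 52 windows. AURKA, UBE2C, BIRC5, BUB3, TPX2, TTK and FOXM1 were not matched. The CHR letters TTTGAA, searched on both strands, were in a window of 33 of the 43 members (76.7%), whereas 18.2% of all genes with a window held them. Counted by window, the shares were 69.2% of the members' and 15.2% of all 35116 windows. Most matches lay close to the start, as in the sequences of CCNB2, PLK1 and KIF18A above. A CHR match starting between 60 bases before and 20 bases after the start site was present in 25 members (58.1%) and in 5.08% of all genes.

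CCAAT was likewise present in 33 of 43 members (76.7%), against 39.7% of all genes, and 25 members (58.1%) held it in the same window as the CHR letters, against 7.26% of all genes. The members' 79 CCAAT matches had their median position 79 bases before the start site, and the 48 CHR matches had theirs 29 bases before it. One form of the core of the heat shock element bound by HSF1, GAANNTTC, was found in 5 of 43 members (11.6%) and in 8.21% of all genes. Its longer form, the same core followed by any 2 bases and GAA, was in none of the members' windows and in 0.608% of all genes. The other order of the core, TTCNNGAA, was not searched on its own. TTTGGCGC or TTTCGCGC, letters bound by E2F factors, were in 2 members (4.65%) and in 1.40% of all genes.

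These matches are descriptions of letters and not of binding. Many late cell cycle genes are known to use the CHR, and the members were chosen as genes of mitosis. A link between the share of CHR matches and the change of the members was not tested. Tested members with the CHR letters had a median log2 fold change of 2.08 (32 genes) and those without them 2.09 (10 genes), and the difference between these medians was not tested. ECT2 holds the CHR letters at positions -115 and 34 from the start site of the stretch shown, together with several CCAAT boxes. Only TTTGAA was searched, so members without it, such as CCNB1, may hold other forms of the CHR.

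**Figure D4:**
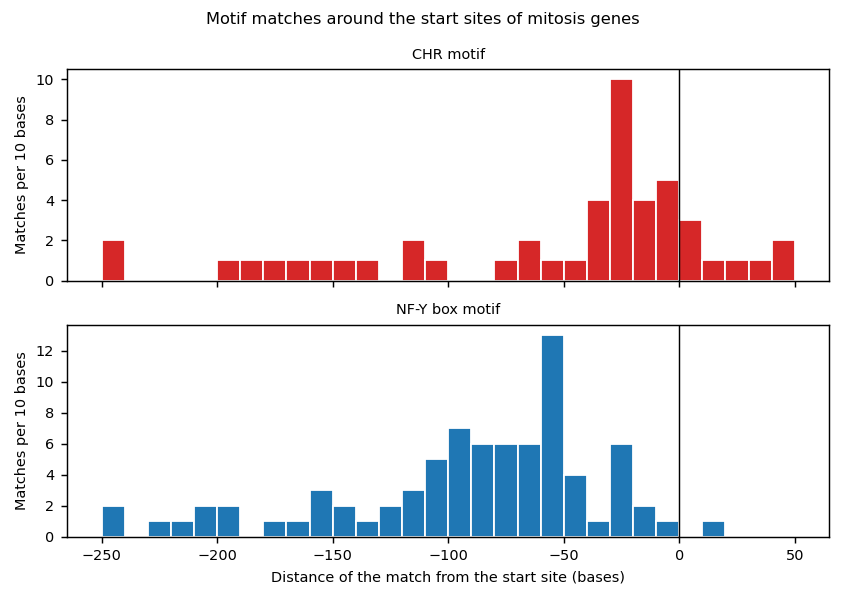
Distance from the annotated start site, in bases, of the 48 matches to the CHR letters (upper panel) and the 79 CCAAT matches (lower panel) in the promoter windows of the 43 matched members, counted in bins of 10 bases; genes with several start sites contribute from each. CHR matches gather just before the start site and CCAAT matches farther upstream.

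Other genes of the division machinery were grouped by function into 10 lists. In DNA replication, a function of the preceding S phase, 31 of 31 genes rose with a median log2 fold change of 1.72. The licensing factor gene CDT1 had the highest change, from 10.1 and 7.59 CPM to 80.4 and 98.3 CPM (log2 fold change 3.34, SE 0.14), and the primase gene PRIM1 rose by 2.73 (SE 0.17). CHR letters were in 1 of 28 replication gene promoters and E2F letters in 9 of 28 (32.1%), unlike the shares among the mitosis genes, a difference that was not tested.

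Kinetochore and checkpoint genes outside the set rose in 18 of 27 tested cases and fell in 3, with a median of 1.05. CENPH, of the inner kinetochore, rose by 2.76 (SE 0.15) and KNTC1, whose product recruits checkpoint proteins, by 2.57 (SE 0.11). The 3 genes that fell were the checkpoint gene MAD1L1 (log2 fold change -0.83, SE 0.09), CENPT (-0.52, SE 0.12) and PMF1 (-0.39, SE 0.12). Condensin genes outside the set rose in 3 of 3 cases, among them the condensin II genes NCAPG2 (1.66, SE 0.11) and NCAPD3 (1.35, SE 0.09). Centrosome and centriole genes rose in 12 of 16 cases, with the other 4 not called and a median of 1.13, and included the centriole duplication kinase gene PLK4 (1.78, SE 0.15), CENPJ (2.03, SE 0.12) and NEK2, a kinase of centrosome separation (2.36, SE 0.21).

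Mitotic entry regulators rose in 10 of 13 cases and fell in 2, with a median of 1.20. The CDK1-activating phosphatase gene CDC25B was at 51.5 and 49.9 CPM in WT and at 299.5 and 342.6 CPM in HSF1-pLVX, a log2 fold change of 2.66 (SE 0.10). GMNN, the geminin gene, whose product blocks relicensing of DNA, rose by 2.14 (SE 0.11). Cohesin and its regulators rose in 10 of 14 cases, with a median of 0.52, led by CDCA5 (sororin, 2.23, SE 0.11) and SGO1 (shugoshin, 1.95, SE 0.23), both protectors of sister chromatid cohesion. In the MuvB, MYBL2 and DREAM list, 8 of 10 genes rose and 1 fell. MYBL2, which encodes B-MYB, rose by 1.92 (SE 0.17) and RBL1, the p107 gene, by 1.56 (SE 0.13).

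The APC/C subunits and FZR1 stood near the median of all genes, with 5 of 15 genes called higher, 3 lower and a median of 0.20, whereas the APC/C activator CDC20 and its enzyme UBE2C were among the members that rose. ANAPC1, a scaffold subunit, rose by 0.80 (SE 0.13). FZR1, the gene of the CDH1 protein that activates the APC/C after anaphase, was at 99.4 and 101.3 CPM in WT and at 61.0 and 59.1 CPM in HSF1-pLVX, and fell by 0.74 (SE 0.08) on the log2 scale. Cytokinesis genes outside the set were mixed, with 4 of 7 higher and 2 lower. The citron kinase gene CIT rose by 2.53 (SE 0.15) and the abscission gene CEP55 by 1.83 (SE 0.16). RHOA, the gene of the RhoA protein that ECT2 activates, was at 588.4 and 547.6 CPM in WT and at 329.8 and 357.6 CPM in HSF1-pLVX. Its log2 fold change was -0.72 (SE 0.10), and that of CHMP4B was -0.54 (SE 0.08).

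Genes of quiescence and arrest went the other way, with 7 of 10 tested genes lower, 2 higher and a median log2 fold change of -1.05. CDKN1A, the gene of the CDK inhibitor p21, was at 1182 and 1160 CPM in WT and at 473.1 and 434.3 CPM in HSF1-pLVX, and fell by 1.37 (SE 0.10) on the log2 scale. PLK2, a kinase induced by stress and p53, fell by 2.20 (SE 0.13), and the stress gene GADD45B fell by 1.76 (SE 0.13). The 2 genes that rose were CCNG1 (0.80, SE 0.10) and BTG2 (0.39, SE 0.09). Calls of these lists are read against the 32.7% of all genes called higher and 33.2% called lower.

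**Figure D5:**
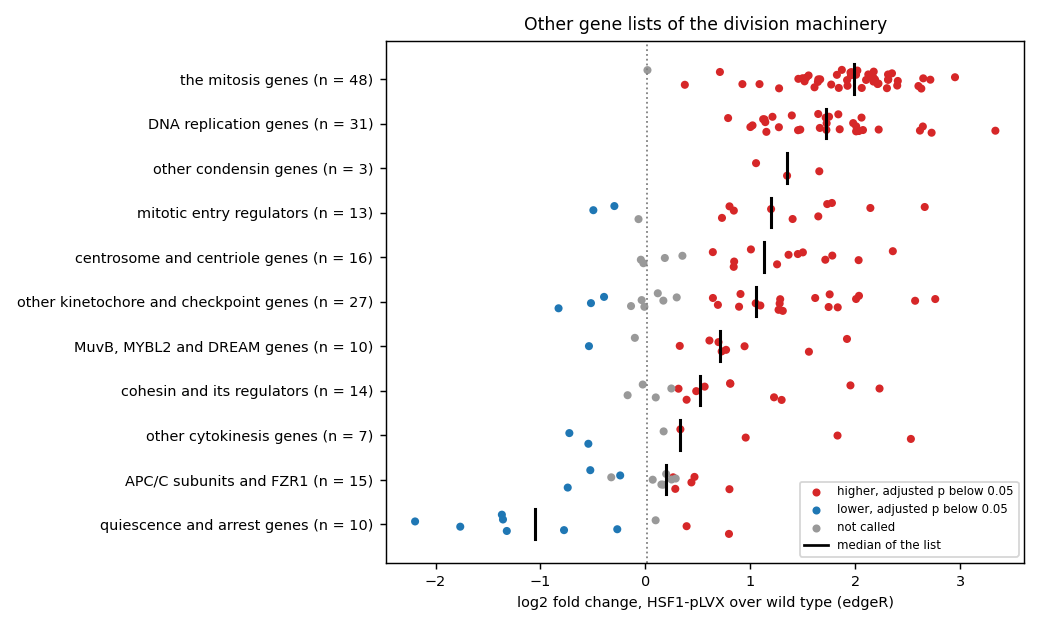
Log2 fold change, HSF1-pLVX over WT, of each tested gene in the mitosis set (48 genes passing the filter in each group) and in 10 other lists, ordered by median; red points were called higher, blue points lower and grey points neither, black bars are list medians and the dotted line is the median of all genes tested. The mitosis set and DNA replication genes lie farthest to the right, the APC/C list lies near the dotted line and the arrest list to its left.

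Library totals were 19510275 and 18688109 counts in WT and 24184285 and 19851092 in HSF1-pLVX, and 45 members had at least 50 counts in every library. Mammary epithelial markers were present in all libraries, but of 10 tested 6 were lower and 4 higher in HSF1-pLVX, including KRT14 (542.3 and 518.0 CPM against 46.8 and 43.4 CPM), CDH1 (log2 fold change -1.43) and TP63 (3.48). Summed fibroblast markers were at 7.78 and 10.8 CPM in WT and at 14.9 and 13.9 CPM in HSF1-pLVX, with 3 of 7 at or under 3 counts in every library. DCN, a fibroblast marker, went from 0.0533 and 0.161 CPM to 3.74 and 4.38 CPM. Endothelial markers summed to 3.14 and 2.10 CPM against 13.4 and 14.7 CPM, mostly from KDR, and immune markers to 0.373 and 0.646 CPM against 2.23 and 2.16 CPM, mostly from ITGAM, with PTPRC at 0 counts in every library. The part of these marker differences in the change of the mitosis genes was not tested.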

How the data were processed

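Total RNA libraries depleted of ribosomal RNA were sequenced as paired-end reads of 76 bases. Per the labels and the study's methods, the authors aligned reads to hg38 with HISAT2 2.0.5, used SAMtools 1.13, and deposited raw counts per gene from featureCounts 1.6.5, with strand, overlap and multi-mapping settings not given in the sources used here. The authors also deposited normalized values on a log2-like scale made with DESeq2 1.32.0, whose transformation is not given, and these served only for the study's ratio rule. Versions are from the submitters' processing notes. All columns of sample values were assigned to a variant and replicate number by their names (0 were left unused).

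Differences were tested on the counts by edgeR's quasi-likelihood method (version 4.0.16, R 4.3.3, glmQLFit and glmQLFTest, TMM, filterByExpr defaults, no block), fitted on the whole table with Benjamini-Hochberg adjustment over the 15830 genes passing the filter and a threshold of 0.05. SE is the absolute log2 fold change divided by the square root of F. The script was tested on simulated data. DESeq2 1.42.0, limma 3.58.1, other scalings, filters, a replicate block and fits leaving out each library were alternatives. The crossed block, the bound for KIF15 and the count without KIF15 and SPC25 were chosen after seeing the data. The members and lists were chosen with earlier results of these data known. Full values are given for the members with the highest and lowest fitted change in each role group and for CDK1, CCNB1, FOXM1, MAD2L1, TOP2A, MKI67 and BUB3, and in each other list for the 2 genes of largest change with at least 50 counts in both libraries of the higher group and for CDKN1A, MYBL2, PLK4 and FZR1. In the kinetochore, cytokinesis and arrest lists, the genes called against the more common direction were also named, after seeing the data. In the cytokinesis list 7 of 9 symbols were matched. Promoters were matched by symbol. Precision is that of 18688109 to 24184285 counts per library.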

Additional observations from a re-analysis of the deposited data

How the results depend on the processing

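The 48 calls were shared by every alternative run with all genes (other normalizations, no count filter, DESeq2, limma voom, the replicate block and each library left out), and with a minimum of 50 counts KIF15 could not be tested and the other 47 were shared. The median log2 fold change of the members was 2.07 by library size only and 2.09 by upper-quartile normalization, and ran from 1.82 to 2.17 with 1 library left out. The ECT2 log2 fold change ran from -0.16 (without HSF1-pLVX replicate 1, adjusted p = 0.268) to 0.18 (without HSF1-pLVX replicate 2) and was not called in any fit. Requiring a 2-fold change left 2358 genes higher and 2218 lower over the whole table. No alternative scaling moved the median of all genes by more than 0.0852 on the log2 scale. In the list of APC/C subunits and FZR1, upper-quartile normalization gave 9 genes higher and 2 lower, where the main fit gave 5 and 3. With the replicate block, 48 members and, over all genes, 5138 higher and 5171 lower were called; no source says that a number marks a shared culture, and the deviations of same-numbered samples had a correlation of 0.000143 over all genes tested and -0.113 over the 9672 genes above 8 CPM, although most members were higher in replicate 1 of both variants. Crossing the numbers gave 5429 genes higher and 5487 lower. KIF15 and SPC25 held at most 4 counts in a WT library, and the cause was not tested.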

Other observations

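Kinesin genes outside the set, chosen after the values of the members were seen, did not move as one. Of 24 tested, 11 were higher, 11 were lower and 2 were not called in HSF1-pLVX cells (edgeR, adjusted p below 0.05), where 32.7% of all genes tested were called higher and 33.2% lower, with a median log2 fold change of 0.18 and a range of -3.58 to 2.31. The mitotic motors KIF18B (2.31) and KIF22 (1.27) were among those that rose. KIF3C, a motor of the kinesin-2 family, was at 133.2 and 132.0 CPM in WT and at 24.1 and 19.5 CPM in HSF1-pLVX (log2 fold change -2.60). KIF1C, a vesicle motor, was at 999.7 and 855.6 CPM in WT and at 341.5 and 319.7 CPM in HSF1-pLVX (log2 fold change -1.49), and the kinesin-1 heavy chain gene KIF5B had a log2 fold change of -1.06.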
